A study of Mus musculus with 3 samples.

Results

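The circadian clock genes described here are 10 genes picked by symbol from the 32285 genes of 3 single-cell libraries of sorted mouse lung endothelial cells (ECs). They are the activator Clock, the repressors Per1, Per2, Per3, Cry1 and Cry2, the nuclear receptors Nr1d1 and Nr1d2, and the output factors Dbp and Tef. Their transcripts were counted as unique molecular identifiers (UMIs, 1 per captured RNA molecule) in endothelial barcodes, which held 1000 to 5000 detected genes, under 20% mitochondrial UMIs and at least 2 UMIs of Pecam1 and Cdh5 together. No measured value entered the choice of the genes, although earlier results of these libraries were known.

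All libraries came from lungs of wild type C57BL/6 mice, adult males by the methods of the study. Control mice received PBS through the tail vein and were taken at 6 h. The other mice received 200000 B16-F10 cells, a pigmented mouse melanoma line, in 100 µl of PBS and were taken at 6 h or at 30 h. The labels give 2 mice per treatment, whereas the methods describe a pool of 3 mice, and which holds for these libraries is not settled. The animals of a group share 1 library, so no difference below has a replicate check and all intervals cover counting error only. The 2 time points lie 24 h apart. The hour of day of injection and of tissue collection is not given in the sources used here, and no PBS library of 30 h was analysed here, so time of day, treatment and library preparation cannot be told apart. Lungs were digested with collagenase for 1 h at 37 °C and sorted for PECAM1 without PTPRC, and melanoma cells were also added from the 6 h lungs.

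The clock is a loop of transcription in which CLOCK pairs with BMAL1, the product of Arntl, and binds a short DNA word called the E-box. This pair switches on Per and Cry genes, whose proteins feed back to block it, and also Nr1d1 and Nr1d2, whose products (REV-ERB) repress Arntl, Clock, Npas2, Cry1 and Nfil3 through the ROR element. DBP and TEF act on a further word, the D-box, where NFIL3 opposes them. In textbook descriptions of mouse tissues Dbp, Nr1d1 and Per3 peak in the rest phase and Arntl at the opposite time of day, and most cell types, ECs among them, keep such a rhythm.

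RefSeq promoters (GRCm38.p6, 250 bases before to 50 bases after each listed start) were found for 9 of the 10 genes. The E-box CACGTG, searched on both strands, was in promoters of Per1, Cry1 and Tef, and 8.09% of all 27025 genes held it in a promoter (7.15% of all 32851 promoters). The D-box TTANGTAA was in that of Per3 alone, and 2.72% of all genes held it (2.32% of promoters). None of the 9 held the ROR element ANTAGGTCA, which was in 0.707% of all genes (0.661% of promoters). Of the genes named below, Arntl and Nfil3 held that word in their promoters, whereas those of Ciart and Clock did not. The stretches around these words are shown so that the members can be read by the element they carry. Per1 and Arntl each have 2 listed promoters, of which 1 held the word. The Per1 stretch belongs to a start inside the gene, whose first base is at 69095217. The Arntl word lies after its start, within the 50 bases searched there. Capitals mark the word and the letters run 5′ to 3′ along the gene:
Per1, E-box, chr11:69098738-69098833, plus strand: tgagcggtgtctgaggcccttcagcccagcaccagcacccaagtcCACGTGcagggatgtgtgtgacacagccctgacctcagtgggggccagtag
Cry1, E-box, chr10:85185064-85185159, minus strand: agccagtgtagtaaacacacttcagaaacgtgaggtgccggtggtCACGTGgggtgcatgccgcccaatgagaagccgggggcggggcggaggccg
Tef, E-box, first listed start, chr15:81802501-81802596, plus strand: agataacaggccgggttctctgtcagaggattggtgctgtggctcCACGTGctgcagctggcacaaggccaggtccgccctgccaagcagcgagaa
Tef, E-box, second listed start, chr15:81811231-81811326, plus strand: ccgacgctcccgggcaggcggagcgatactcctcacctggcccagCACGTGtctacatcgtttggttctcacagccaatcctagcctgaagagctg
Per3, D-box, chr4:151044771-151044915, minus strand: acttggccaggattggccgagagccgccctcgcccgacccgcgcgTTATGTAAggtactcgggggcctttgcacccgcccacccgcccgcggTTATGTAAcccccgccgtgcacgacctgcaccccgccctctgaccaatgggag
Ciart, 3 E-boxes, chr3:95882229-95882389, minus strand: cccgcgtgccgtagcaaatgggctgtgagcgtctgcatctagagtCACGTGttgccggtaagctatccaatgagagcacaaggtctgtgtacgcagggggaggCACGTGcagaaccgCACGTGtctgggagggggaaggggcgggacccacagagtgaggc
Arntl, ROR element, chr7:113207529-113207557, plus strand: gaaggcagaaAGTAGGTCAgggacggagg
Nfil3, ROR element read on the opposite strand, chr13:52981040-52981096, minus strand: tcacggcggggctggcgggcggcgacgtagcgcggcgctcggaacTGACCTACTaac
A match is a description of letters, and nothing follows about the other promoters, whose elements may lie outside these windows.

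The libraries held between 124085451 and 140601123 UMIs. There were 11231 endothelial barcodes from control mice, 10583 from the 6 h lungs and 9278 from the 30 h lungs, with a median of 7782 to 8675.5 UMIs. Between 22 and 38 of these barcodes were shared by any pair of libraries. Endothelial genes were high in each: Cldn5, a tight junction gene, was at 1956, 1996 and 2611 CPM (UMIs of the gene per 1000000 UMIs of the summed barcodes). RNA of red cells was present in the endothelial barcodes of every library, where the hemoglobin list summed to 3243 CPM in the control, 2115 at 6 h and 827 at 30 h. The epithelial list summed to 742, 551 and 342 CPM in the same order. The part of this RNA in the clock values was not tested beyond the removal of barcodes that held it, which left 18 in the control. Ptprc was at 3.16 to 6.53 CPM.

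Against the control, the 30 h library held more RNA of Nr1d1, Dbp, Per3, Per1 and Nr1d2 and less of Cry1. The 6 h library held more Nr1d1 and less Per1. Past a log2 ratio of 0.5 in size, 1 of the 10 genes was higher and 1 lower at 6 h, where 2.93% of all 10175 genes of at least 5 CPM were higher and 2.18% lower. At 30 h against control 5 were higher and 1 lower, beside 6.43% and 8.3% of all genes. Between the melanoma libraries, 30 h against 6 h, 5 were higher and 1 lower, beside 7.05% and 7.35%. Of the 10, 8 had a mean of at least 5 CPM, and Per2 and Per3 lay just under it. The mean of Dbp reached it only through the 30 h library. Among these 8 alone, 4 were higher and 1 lower at 30 h against control and 30 h against 6 h alike, since Per3 was not among them.

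**Figure D1:**
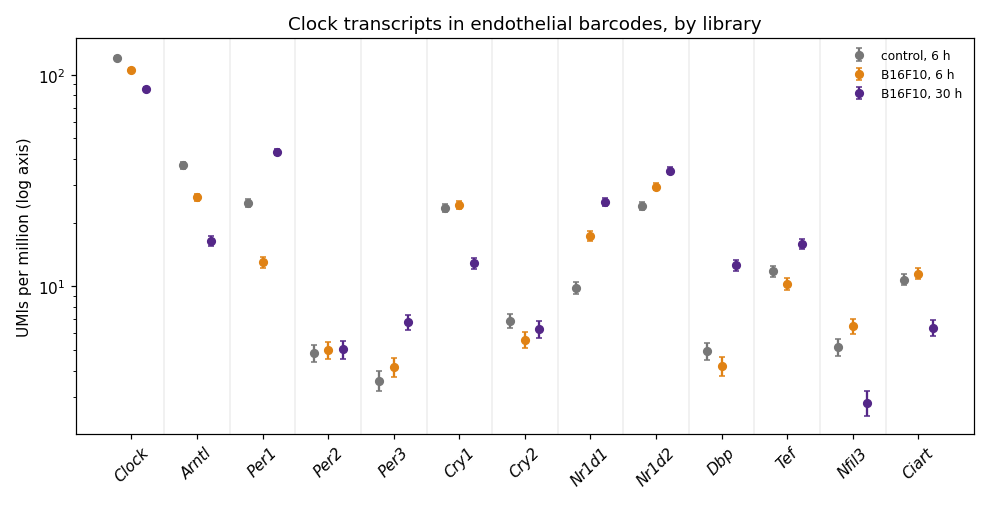
CPM (log axis) of the 10 clock genes and of Arntl, Nfil3 and Ciart in endothelial barcodes of each library; points are library sums and bars exact 95% Poisson intervals, which cover counting error only. Nr1d1 steps up over the 3 libraries from 9.80 to 25.0, while Arntl steps down from 37.3 to 16.4, and the 3 points of Per2 lie together at about 5.

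**Figure D2:**
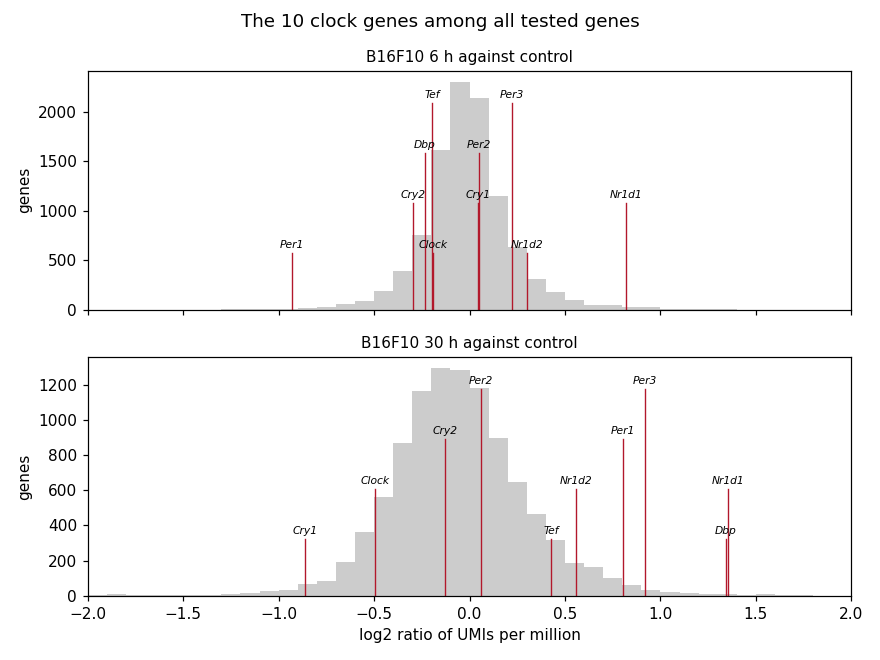
Number of genes by log2 ratio of CPM (bars, bins of 0.1, genes of at least 5 CPM, axis limited to 2 in either direction) with the 10 clock genes as red lines whose heights only separate the names. The lines of Per2 and Per3, whose means were under 5 CPM, mark genes that are not in the bars. At 6 h Per1 lies far in the lower tail and Nr1d1 in the upper one, and at 30 h Nr1d1 and Dbp lie together at about 1.35.

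Clock encodes the DNA-binding partner of BMAL1 (chromosome 5, 76209868 to 76304792, minus strand). It was at 121 CPM in the control, 105 at 6 h and 85.4 at 30 h, from 6958 to 10950 UMIs. Each library thus held less than the one before. The log2 ratio to the control was −0.19 (95% interval −0.23 to −0.15) at 6 h and −0.497 (−0.54 to −0.45) at 30 h, just short of the limit of 0.5. Arntl, its partner (chromosome 7, 113207465 to 113314126), was at 37.3, 26.3 and 16.4 CPM in the same order. That is a log2 ratio of −0.50 (−0.58 to −0.43) at 6 h and −1.19 (−1.28 to −1.09) at 30 h. Npas2, which can stand in for Clock, was at 1.22, 0.412 and 0.466 CPM from 111, 36 and 38 UMIs.

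Per1, a repressor that is also known to respond fast to glucocorticoids and cAMP (chromosome 11, 69095217 to 69109960, plus strand), was at 24.8 CPM in the control, 13.0 at 6 h and 43.2 at 30 h. The melanoma libraries thus lay on opposite sides of the control. Its log2 ratio was −0.93 (−1.03 to −0.83) at 6 h, which placed it 19th from the bottom of the 10175 genes. At 30 h the ratio was 0.80 (0.73 to 0.88), and 30 h against 6 h it was 1.73 (1.64 to 1.83). Once each barcode had been thinned to 2000 UMIs, 4.48% of control barcodes, 2.36% at 6 h and 7.63% at 30 h held a Per1 UMI, with 17.3%, 9.66% and 29.2% before thinning. Thinning left out the shallower barcodes, 195 of them in the control.

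Per2, a paralogue of Per1 (chromosome 1, 91415982 to 91459324, minus strand), was at 4.82, 4.99 and 5.03 CPM from 410 to 438 UMIs. Every log2 ratio of Per2 had an interval around 0, the widest from −0.19 to 0.21 for 30 h against 6 h, −0.14 to 0.24 for 6 h and −0.14 to 0.26 for 30 h against control, so a change beyond these bounds was not seen at this depth. Per3, the third paralogue and the member with paired D-boxes (chromosome 4, 151003652 to 151044665, minus strand), overlaps Camta1 on the same strand. Reads from the shared stretch may thus not all be counted for Per3. It was at 3.57, 4.16 and 6.75 CPM. The 30 h library stood above the others. Its log2 ratio was 0.22 (0.00 to 0.44) at 6 h and 0.92 (0.72 to 1.12) at 30 h.

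Cry1 encodes a late repressor of CLOCK and BMAL1 (chromosome 10, 85131700 to 85185064, minus strand). It was at 23.4 CPM in the control, 24.1 at 6 h and 12.9 at 30 h. Control and 6 h differed by a log2 ratio of 0.04 (−0.04 to 0.13), and the 30 h library was lower than the control by a ratio of −0.86 (−0.97 to −0.76). Cry2, its paralogue (chromosome 2, 92403646 to 92434043, minus strand), was at 6.85, 5.58 and 6.26 CPM. Its ratio was −0.30 (−0.47 to −0.12) at 6 h and −0.13 (−0.30 to 0.04) at 30 h. The members with an E-box in the printed windows (Per1, Cry1 and Tef) thus did not share a direction at 30 h.

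Nr1d1 encodes REV-ERBα (chromosome 11, 98767932 to 98775333, minus strand), and its gene body overlaps Thra on the opposite strand. It was at 9.80 CPM in the control, 17.3 at 6 h and 25.0 at 30 h, and the 3 Poisson intervals did not meet. The log2 ratio to control was 0.82 (0.70 to 0.94) at 6 h and 1.35 (1.24 to 1.47) at 30 h, the 42nd highest of 10175 genes at 30 h. Nr1d2, which encodes REV-ERBβ (chromosome 14, 18204054 to 18239127, minus strand), was at 23.9, 29.5 and 35.2 CPM. Its ratios, 0.30 (0.22 to 0.39) and 0.56 (0.48 to 0.64), had the direction of those of Nr1d1 in both libraries and were smaller.

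Dbp, a D-box activator whose RNA swings widely over the day in many tissues (chromosome 7, 45705088 to 45710203, plus strand, with its end overlapping Sphk2 on the opposite strand), was at 4.94 CPM in the control, 4.20 at 6 h and 12.5 at 30 h. Control and 6 h lay close and 30 h apart. The log2 ratio was −0.23 (−0.44 to −0.03) at 6 h, 1.34 (1.18 to 1.51) at 30 h against control and 1.58 (1.40 to 1.75) against 6 h. Tef, a related activator (chromosome 15, 81802421 to 81826863, plus strand), followed the same order at 11.8, 10.3 and 15.8 CPM. Its ratio was −0.20 (−0.33 to −0.07) at 6 h and 0.43 (0.31 to 0.55) at 30 h. Nfil3, the repressor of the D-box, was at 5.15, 6.48 and 2.80 CPM, with a ratio of 0.33 (0.15 to 0.51) at 6 h and −0.88 (−1.12 to −0.65) at 30 h, opposite in sign to those of Dbp and Tef in both libraries.

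Of the other 24 genes of the clock pathway that were listed, 15 had at least 5 CPM. At 6 h 4 of the 15 were past the limit on the high side and 2 on the low side, beside 2.93% and 2.18% of all genes. The means of Noct and Wee1 reached 5 CPM only through the 6 h library, in which they were high. Noct, a phosphatase that is also known as an immediate early gene, was at 3.16, 13.7 and 2.42 CPM with a log2 ratio at 6 h of 2.11 (1.93 to 2.31). Timeless, a replication fork gene, was at 25.9, 42.3 and 24.7 CPM, Wee1, a cell cycle kinase, at 4.61, 7.48 and 4.44, and Bhlhe40, an E-box repressor, at 13.8, 21.7 and 19.8. These genes were high at 6 h, and all but Bhlhe40 were near the control at 30 h or, for Noct, under it. The genes on the low side at 6 h were Arntl and Rora, an activator at the ROR element, which was at 153, 107 and 141 CPM.

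At 30 h 2 of the 15 were higher and 2 lower, beside 6.43% and 8.3% of all genes. Klf10, an output gene that also responds to TGF-β, was higher (56.0, 59.5 and 95.7 CPM), as was Bhlhe40. Ciart, a repressor of CLOCK and BMAL1, was lower (10.8, 11.5 and 6.37 CPM), as was Arntl. The casein kinases and ubiquitin ligases that set the stability of PER moved little: Csnk1d, Csnk1e, Btrc and Fbxw11 had ratios between −0.32 and −0.10 at 30 h.

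Ratios of UMIs within a library do not depend on its total, and they set genes of opposite textbook phase against each other. Dbp UMIs were 0.133 times those of Arntl (0.120 to 0.146) in the control, 0.160 times (0.143 to 0.178) at 6 h and 0.766 times (0.705 to 0.831) at 30 h. The corresponding ratio of Nr1d1 to Arntl was 0.263, 0.657 and 1.53. For Per3 it was 0.0957, 0.158 and 0.412. By Nr1d1 and Per3 the libraries were ordered control, 6 h, 30 h with intervals that did not meet. Both ratios share Arntl as denominator, which itself fell in that order (37.3, 26.3 and 16.4 CPM). Their shared order is therefore not a set of separate observations. By CPM, Per1 did not follow it, with 6 h lowest. By Dbp the control and 6 h libraries lay close together. With 3 libraries and no stated hours, no phase was fitted.

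**Figure D3:**
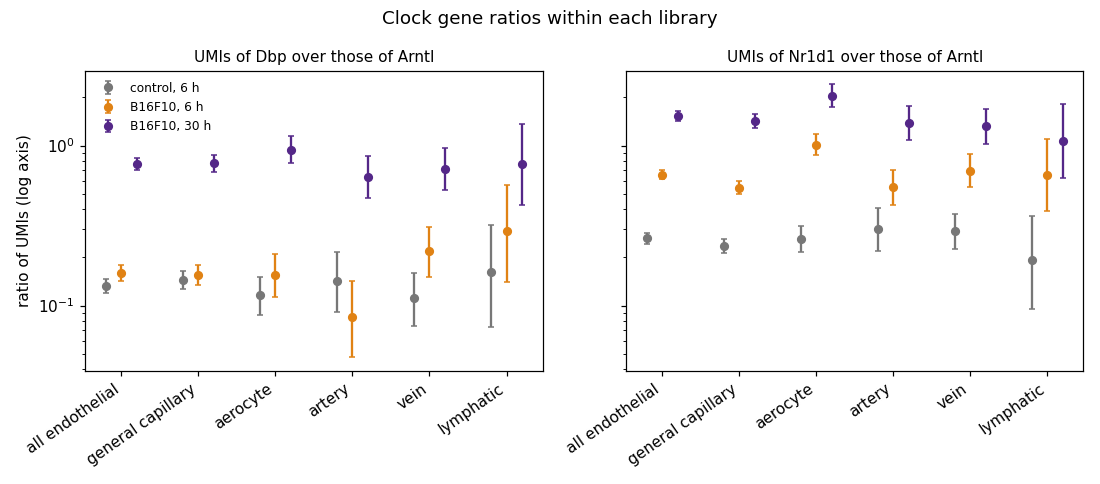
UMIs of Dbp (left) and Nr1d1 (right) divided by those of Arntl (log axis) within each library, over all endothelial barcodes and in the 5 marker-gated classes; bars are exact 95% intervals of counting error. At the gate of 3 UMIs drawn here, the 30 h library is highest in each class on both sides, and for Nr1d1 the 6 h library lies between the others; at a gate of 5 UMIs the lymphatic class holds too few UMIs for these ratios.

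Classes were gated by marker UMIs: general capillary cells (gCap), aerocytes (aCap, the wide capillary cells at gas exchange surfaces), artery, vein and lymphatic ECs. They are ranges of marker counts and not clusters, and each name stands for a marker list and not for an identified cell type. Some markers differed between the control, 6 h and 30 h libraries over all endothelial barcodes. The aCap marker Apln was at 26.8, 33.0 and 76.5 CPM and Fibin at 205, 115 and 192, and the artery marker Gja5 at 3.48, 4.83 and 15.3. A gate may thus admit different barcodes in each library. In the control, 6 h and 30 h libraries gCap held 6894, 6779 and 5139 barcodes, aCap 1821, 1574 and 1814, artery 596, 614 and 591, vein 710, 617 and 543, and lymphatic 172, 152 and 170. Between 8.0% and 11.0% of endothelial barcodes stayed ungated, and 31.8% to 36.6% lay at the gate of a class or 1 UMI under it.

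At this gate of 3 marker UMIs, Per1 was under the control at 6 h in all 5 classes (log2 ratio −1.15 to −0.90) and above it at 30 h in all 5 (0.55 to 0.92), each with an interval clear of 0. Nr1d1 was above the control in all 5 classes at 6 h (0.70 to 1.45) and at 30 h (1.08 to 1.71). Dbp was higher at 30 h in all 5 (1.18 to 1.76), whereas at 6 h it was above the control in 2 classes and below it in 3. Cry1 at 30 h ranged from −1.21 to −0.54, Arntl from −1.27 to −0.80 and Clock from −0.59 to −0.35, and each was under the control in all 5 classes with intervals clear of 0. At a gate of 5 marker UMIs these signs were as before in gCap, aCap, artery and vein. The lymphatic class then held only 26, 21 and 27 barcodes, and its Per1 at 30 h, from 6 UMIs beside 11 in the control, had a log2 ratio of −0.73 (−2.45 to 0.83). It then held no Dbp or Arntl UMI at 30 h, and its intervals for Per1, Nr1d1, Cry1 and Clock all reached across 0, so the lymphatic values rest on the looser gate. The classes share a library, so they are no replicates of the treatment.

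The counts past the limit in each class are given beside the share over all genes of that class. The mean of Dbp over the libraries reached 5 CPM only through the 30 h library in gCap, aCap and artery, and so did that of Per3 in vein, so these counts are a description. In gCap, where 8 members passed the filter, 1 was higher and 1 lower at 6 h beside 3.64% and 2.34% of all genes, and 4 were higher and 2 lower at 30 h beside 6.7% and 8.18%. In aCap, with 9 members passing, 1 was higher and 2 lower at 6 h beside 2.34% and 1.69%, and 4 were higher and 2 lower at 30 h beside 8.01% and 11.1%. Artery barcodes gave 1 higher and 2 lower of 8 at 6 h beside 7.7% and 5.4%, and 4 higher and 1 lower at 30 h beside 9.96% and 12.2%. Vein barcodes gave 2 higher and 1 lower of 9 at 6 h beside 4.98% and 4.79%, and 5 higher and 1 lower at 30 h beside 7.92% and 11.2%. In lymphatic barcodes 3 of 8 were higher and 1 lower at both times, beside 12.2% and 11.3% at 6 h and 13.8% and 15.6% at 30 h.

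**Figure D4:**
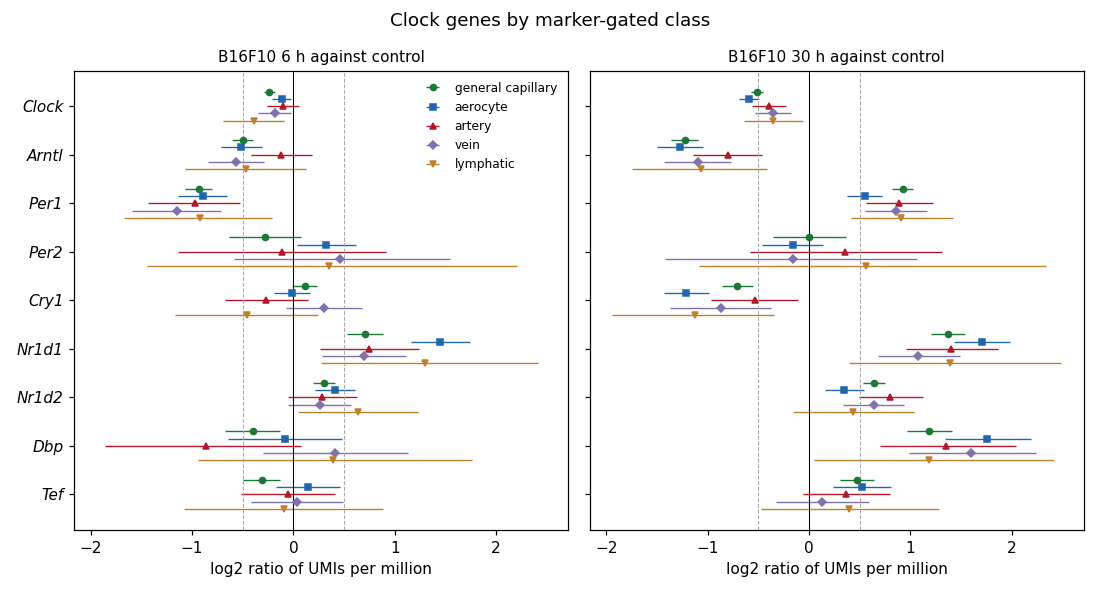
Log2 ratio of CPM against the control at 6 h (left) and 30 h (right) for 8 clock genes and Arntl in each marker-gated class; bars are exact 95% intervals of counting error and dashed lines mark 0.5 in either direction. Per1 changes side between the panels in each class at the gate of 3 UMIs drawn here, which the lymphatic class did not do at a gate of 5 UMIs. Nr1d1 is right of 0 in both panels, and the lymphatic intervals are the widest.

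Per2, level across the 3 libraries, differed between classes. In aCap it was at 10.6 CPM in the control, 13.3 at 6 h and 9.52 at 30 h, and in gCap at 2.96, 2.44 and 2.97. Each aCap value was above each gCap value, with log2 ratios of aCap to gCap of 1.84 (1.53 to 2.16), 2.45 (2.12 to 2.78) and 1.68 (1.34 to 2.03) within the libraries. Artery, vein and lymphatic barcodes held 2.16 to 5.12 CPM of Per2. The ratio of 6 h to control was 0.32 in aCap and −0.28 in gCap, a difference of 0.60 (0.16 to 1.04).

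Nr1d1 also showed a class difference at 6 h. It went from 7.75 to 21.1 CPM in aCap, a log2 ratio of 1.45 (1.16 to 1.74), and from 8.48 to 13.8 in gCap, a ratio of 0.71 (0.53 to 0.88). The difference of the ratios was 0.74 (0.41 to 1.07), and at 30 h it was 0.33 (0.01 to 0.65). Within libraries vein barcodes held more Nr1d1 than gCap in all 3, at 13.4, 21.8 and 28.4 CPM. So did artery barcodes, at 11.4, 19.1 and 30.2 CPM, and ungated ones, at 17.6, 28.4 and 33.8.

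Cry1 in aCap was at 30.6, 30.3 and 13.3 CPM and in gCap at 21.5, 23.2 and 13.2. The classes thus differed in the control and at 6 h and were level at 30 h, and the 30 h ratio was lower in aCap by −0.50 (−0.76 to −0.24). Dbp was lower in aCap (3.43 CPM) than in gCap (5.22) in the control and at a like level at 30 h (11.6 and 11.9). Tef was higher in artery than in gCap in all 3 libraries, by log2 ratios of 0.45 to 0.81. Arntl was lower in aCap than in gCap in all 3, by −0.28, −0.29 and −0.32, and Ciart by −1.02, −1.01 and −1.22.

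Other signals also differed between the libraries. Genes induced by tissue dissociation, such as Fos and the heat shock genes, were above the control at 6 h for 17 of 17 (median log2 ratio 0.59 beside −0.01 over all genes, 10 past the limit on the high side beside 2.93%) and below it at 30 h for 14 of 17 (median −0.44 beside −0.07, 5 past the limit on the low side beside 8.3% and 2 on the high side beside 6.43%). Among them the heat shock gene Hspa1b had the largest ratio at 6 h, with 17.2 CPM in the control, 111 at 6 h and 10.4 at 30 h. Per1 lay on the other side of the control from their median in both libraries. Of 14 measured glucocorticoid-induced genes, 7 were past the limit on the low side and 2 on the high side at 6 h (median −0.34), beside 2.18% and 2.93% of all genes, and 6 on the low and 1 on the high side at 30 h (median −0.44), beside 8.3% and 6.43%. The genes on the high side at 6 h were the metallothionein genes Mt1 and Mt2, and the mean of Mt2 (3.78, 15.4 and 0.982 CPM) reached 5 CPM only through the 6 h library. Mt1, also on that list, was at 17.7, 54.9 and 3.28 CPM. Zbtb16 was at 229, 105 and 250 CPM and Tsc22d3 at 205, 130 and 203, both with 6 h lowest as for Per1, while Fkbp5 was at 49.2, 26.8 and 17.5. Klf9 and Arrdc2 also had 6 h lowest, and the other measured genes of the list did not. At 30 h, 12 of the 14 were below the control and 2 above it, whereas Per1 was above it. The median over all genes was −0.07 at 30 h, so most genes also lay below the control there. The part of handling and of glucocorticoids in the clock result was not tested.

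Empty droplets, barcodes with 10 to 100 UMIs, gave the level of free RNA. They held Per1 at 37.6, 15.8 and 40.6 CPM, Nr1d1 at 20.5, 15.8 and 34.5, and Dbp at 6.84, 5.76 and 21.2, from 4 to 107 UMIs each. These levels were near or above those of the endothelial barcodes. With 10% of that profile subtracted, the counts against the control were as before on the high side at 30 h and on both sides at 6 h. The 31 melanoma barcodes of the 6 h library held 10 Clock UMIs (44.0 CPM) and no UMI of Per1, Cry2 or Dbp.

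The genes whose levels were most like those of Dbp over the 15 points of 3 libraries and 5 classes, among 6901 genes of at least 20 CPM, were Romo1, Ifi27, mt-Atp8, Bloc1s1 and Tapbp (Pearson r of 0.91 to 0.92). For Per1 they were Tsc2, Hint2, Rsu1, Zbtb16 and Plcg1 (0.92 to 0.94). The points share 3 libraries and their depth, and the values only describe likeness.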

How the data were processed

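Count matrices of 3 libraries (Chromium 3′ kit v2 per the labels) were used as the authors deposited them: unfiltered UMI counts per gene and barcode, made with Cell Ranger against mm10. The submitters' processing notes give version 7.2.0, whereas the study's methods name an earlier one, and which made these files is not settled. The versions differ in their default for intronic reads, whose counting is not stated and could change the CPM values, so genes were set against each other only as ratios of UMIs within a library, which were read across libraries. Members and lists were chosen with earlier results of these data known. UMIs were summed over barcodes and scaled to 1000000. Limits on genes and mitochondrial UMIs follow the study's methods. No doublets were removed. Artery, vein, lymphatic and aCap barcodes needed at least 3 UMIs of their own list and under 3 of each other list among these classes. General capillary barcodes needed at least 3 UMIs of their list and under 3 of each of the other lists. UMIs of gCap markers were thus not limited in the other classes. Sums have exact Poisson intervals, ratios exact conditional binomial ones and shares Clopper-Pearson ones (95%); differences of ratios between classes have normal intervals from the counts. With 1 library per group no test was run. The intervals of ratios were tested on simulated Poisson counts, the kind of spread for which they are built. Spread between cells, mice or libraries was not part of that simulation, and the other intervals were not tested in it. Besides the members, Arntl, Npas2, Nfil3, Rora and pathway genes of at least 5 CPM past the limit were to be named, with up to 3 genes of the largest ratio per other list; Tsc22d3, Zbtb16, Fkbp5, the kinases and ligases and the class contrasts shown were chosen after their values were seen. Some listed genes are not reported here. Positions are from GENCODE M21 (GRCm38, the assembly of mm10), 1-based. Python 3.11.15, numpy 2.4.6, scipy 1.17.1 and scanpy 1.11.5 were used.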

Additional observations from a re-analysis of the deposited data

Results flagged for a closer look

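Empty droplets, which entered the endothelial comparisons only where their profile was subtracted, also held more RNA of Dbp and Nr1d1 at 30 h than in the control. In them the log2 ratio of 30 h to control was 1.63 (95% interval 0.42 to 3.14) for Dbp, from 56 and 6 UMIs, and 0.75 (0.01 to 1.57) for Nr1d1, from 91 and 18 UMIs. Both were singled out because the signal in data outside the main measurement was above that of the control library. The cells that shed this RNA are not known, and its part in the endothelial values was not tested beyond the subtraction described with them.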

How the results depend on the processing

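No paired analysis was possible because each group has 1 library, and for the same reason no replicate could be left out. Over 12 other settings, leaving aside the removal of all barcodes with other RNA, the log2 ratio of each of the 10 genes kept its sign in 118 of 120 values at 6 h, 120 of 120 at 30 h and 118 of 120 for 30 h against 6 h. Per1 ranged from −0.98 to −0.88 at 6 h and from 0.74 to 0.92 at 30 h, Nr1d1 from 0.71 to 1.02 and from 1.23 to 1.48, Dbp at 30 h from 1.19 to 1.55 and Cry1 at 30 h from −0.89 to −0.71. The number of genes on the low side at 30 h was 2 in place of 1 with doublets removed, in the general capillary gate, with the empty-droplet profile subtracted, and with barcodes of immune, fibroblast, pericyte or platelet RNA removed (chosen after seeing the data). The number on the low side at 6 h was 2 with thinned barcodes, through Cry2. The number on the high side at 30 h was 6 in place of 5 with median-of-ratios scaling, through Tef, and for 30 h against 6 h it lay between 4 and 6. Removing barcodes with RNA of any other cell type left 18 control, 133 6 h and 2103 30 h barcodes, as such RNA was in 99.8%, 98.7% and 77.3% of the endothelial barcodes. In that remnant 4 of the 10 genes had no control UMI and no count could be given against the control, and 2 ratios changed sign, Nr1d1 at 6 h (−0.26) and Nr1d2 at 30 h (−0.32). Small numbers of barcodes limit that setting. With classes gated at 5 in place of 3 marker UMIs, 111 of 120 class levels in gCap, aCap, artery and vein lay inside their intervals but only 10 of 30 lymphatic ones. Of 104 class ratios to the control, 3 past the limit changed sign: lymphatic Per1 (−0.73) and Per3 (−0.86) at 30 h and artery Per3 at 6 h (−0.70). The limits on depth are those of the intervals, and levels under 5 CPM are least certain.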

Other observations

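Barcodes with no UMI of Pecam1 and none of Cdh5, a mixed set of 123, 118 and 94 in the control, 6 h and 30 h libraries, held Nr1d1 at 83.1, 33.2 and 24.2 CPM, from 47, 25 and 16 UMIs. The log2 ratio to the control was −1.32 (95% interval −2.08 to −0.59) at 6 h and −1.78 (−2.70 to −0.93) at 30 h, while in endothelial barcodes Nr1d1 was above the control at both times. Their Per1 was at 26.5, 33.2 and 54.5 CPM and their Dbp at 8.84, 15.9 and 18.2. The makeup of this set was not resolved and may differ between the libraries. Melanoma barcodes, gated at under 2 UMIs of Pecam1 and Cdh5, numbered 31 at 6 h and 0 in the control and at 30 h. Some of them may thus be in the 6 h set, and they held Nr1d1 at 8.81 CPM from 2 UMIs. The difference between the set and the endothelial barcodes was not tested.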
